A study of Mus musculus with 8 samples.

Results

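The genes described here are 41 genes of DNA replication and repair, chosen by name. Each was read from the probe set that carries its symbol and no other, and from the brighter one where a gene had 2. All 41 were found among the 19938 genes measured in this way, 39 of them with a single probe set. Expression was measured in mouse lung cells that carry the surface protein Epcam and were taken from embryos at E18.5, shortly before birth. The 4 knockout arrays come from animals in which Cre driven from Shh deleted the Hippo kinases Mst1 and Mst2 in the lung epithelial progenitors, and the 4 control arrays from animals labelled only as control. The labels give neither their alleles nor the strain, the sex or whether animals were pooled. Cells that never expressed Cre keep both kinases, and whether the Epcam selection removed all of them is not known. Lungs were dissociated and the cells were taken with magnetic beads, so all groups share that handling.

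Before a cell divides it copies its genome in S phase. In G1 the origin recognition complex, Cdc6 and Cdt1 load the ring-shaped Mcm helicase onto origins, a step called licensing that geminin (Gmnn) blocks later in the cycle. In S phase Cdc45 and the GINS complex switch the helicase on, primase and the DNA polymerases copy the strands behind it, the sliding clamp Pcna tethers the polymerases, and ligase joins the fragments of the lagging strand. E2F transcription factors, held back by the Rb family in resting cells, drive many of these genes, and the Hippo kinases restrain Yap and Taz, coactivators that promote growth of epithelial progenitors.

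All values are log2 expression, and each difference is knockout minus control with limma's standard error (SE), n = 4 arrays per group. A gene was said to have risen or fallen when its p-value, adjusted over all 19938 genes by the Benjamini-Hochberg method, was under 0.05. Values are relative to the whole array, and in such a mixed sample fewer cells of a type and less RNA per cell cannot be told apart. Nothing in the labels says whether each array stands for 1 animal, so p-values measure the spread between these arrays. The number of arrays limits the precision.

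Stk4, which encodes Mst1, read 9.45, 9.44, 9.31 and 9.24 in knockout replicates 1 to 4, against 9.59, 9.84, 9.59 and 9.62 in control replicates 1 to 4 (−0.30, SE 0.076, adjusted p = 0.0188). The gene of Mst2, Stk3, was not analysed here. Whether the Stk4 probe set lies in the deleted part is not known, so its level does not check the deletion. Epcam averaged 10.07 in knockout and 10.06 in control arrays. Of the 8 epithelial markers listed, Epcam among them, 2 rose and 0 fell. The marker lists were chosen with earlier results of these data known. Their mean ranged from 11.57 to 11.63 in knockout and from 11.35 to 11.58 in control arrays. Array medians lay between 7.21 and 7.30. Markers of other cell types were present in both groups. Of the measured marker genes of each type, 3 of 10 mesenchymal, 4 of 8 endothelial and 2 of 5 mesothelial genes rose. Of the leukocyte genes 1 of 8 rose, and of the erythroid genes 0 of 5. None of these marker genes fell. The mean of the mesenchymal markers ranged from 8.58 to 8.97 in knockout and from 8.29 to 8.73 in control arrays. For endothelial markers it ranged from 9.64 to 9.69 in knockout and from 9.23 to 9.60 in control arrays. For mesothelial markers it ranged from 9.16 to 9.69 in knockout and from 8.62 to 9.19 in control arrays. The mesothelial genes differed unequally, by 0.17 to 1.43 with a median of 0.25, so their mean leans on the largest of them. The leukocyte mean, at 9.42 to 9.81 in knockout and 8.90 to 9.95 in control arrays, and the erythroid mean, at 6.54 to 6.79 in knockout and 6.54 to 6.63 in control arrays, overlapped between groups. With the mesenchymal, leukocyte or erythroid mean per array as a covariate, 17, 20 and 23 of the 41 genes described here rose. The part of the endothelial and mesothelial markers was not tested. Xist, transcribed in female cells, was low in knockout replicate 4 (6.33) and in control replicates 2 (5.85) and 4 (5.90). It read 10.31 in knockout replicate 1 and 12.30 to 12.43 in the remaining arrays. With Xist as a covariate 20 of the 41 genes rose.

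Of the 41 genes 22 rose in the knockout arrays, 1 fell and 18 did not pass, while 8.6% of all genes rose and 10.2% fell. The risen genes were higher by 1.13-fold (Gins3) to 1.58-fold (Rrm1), and in all 22 every knockout array lay above every control array. Counting also genes that did not pass, 24 of the 41 lay wholly above the control arrays and 2 (E2f2 and Pcna) wholly below, against 10.2% and 11.9% of all genes. The median difference was 0.24 over the 41 genes and −0.02 over all genes, and 34 of the 41 differences were positive, against 45% of all genes. The rises were small in size. The exact permutation test over the 70 assignments of arrays cannot go below p = 0.0286 for any gene. Genes whose groups do not overlap sit at that value.

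**Figure D1:**
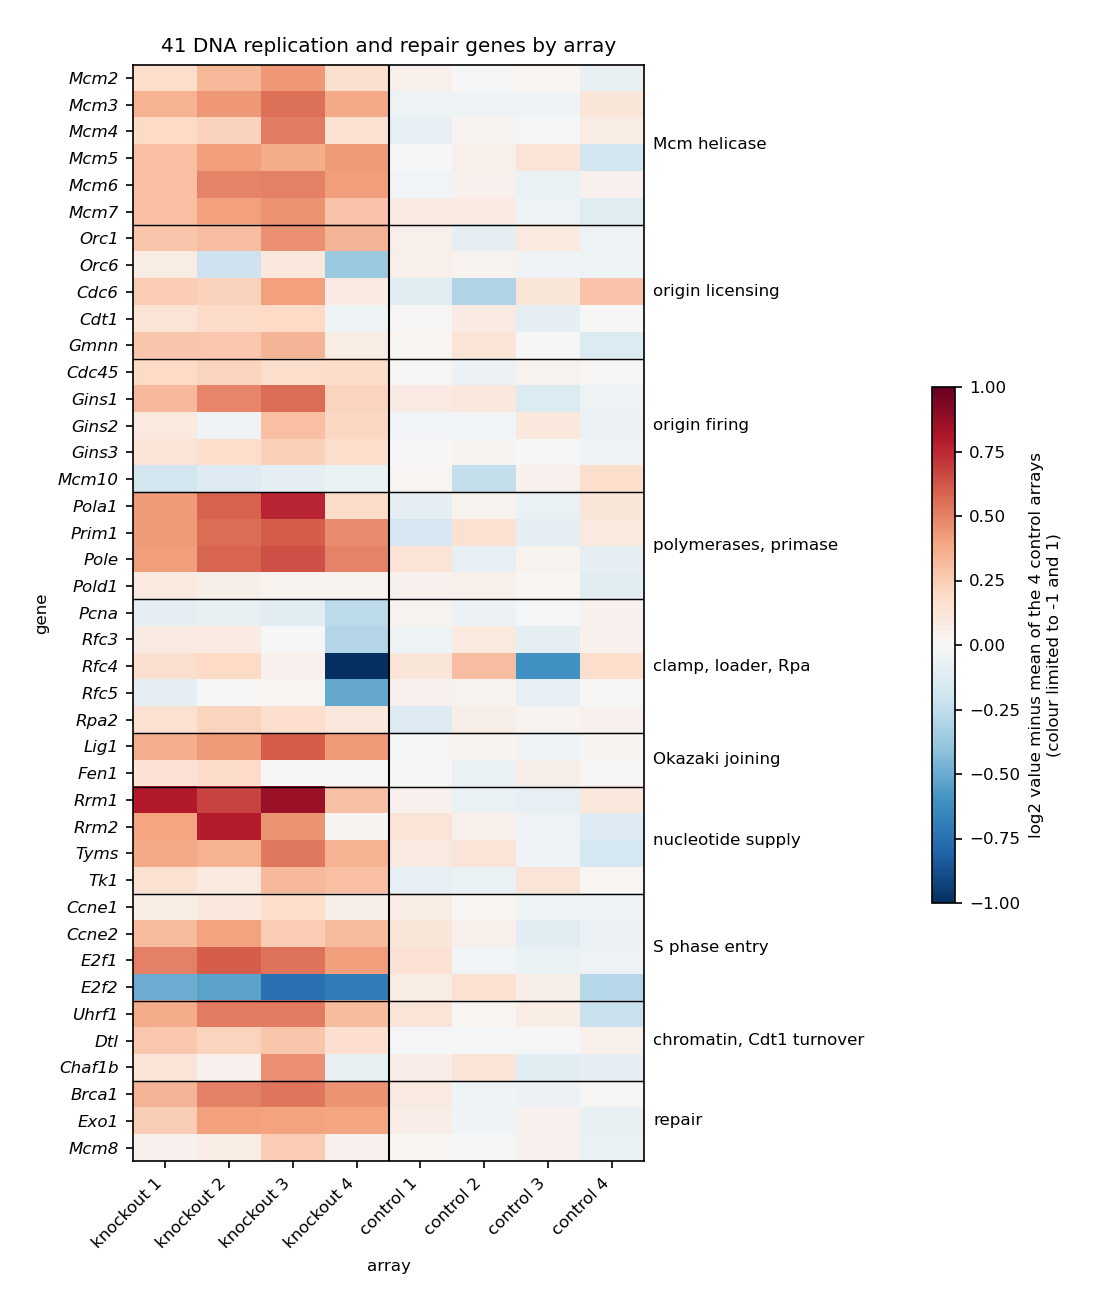
Log2 expression of each of the 41 genes (rows, grouped by role) in each array (columns, knockout left and control right), shown as the difference from the mean of the 4 control arrays. Red runs through the knockout columns for the Mcm helicase and the polymerases other than Pold1, E2f2 is blue in all 4 knockout arrays, and Rfc4 is dark blue in knockout replicate 4 and blue in control replicate 3.

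The knockout arrays were not equally high. Relative to the mean of the control arrays, the median of the 41 genes was 0.24, 0.23, 0.37 and 0.17 higher in knockout replicates 1 to 4. Among the knockout arrays, replicate 3 held the highest value in 27 of the 41 genes and replicate 4 the lowest in 24. Each of the 22 risen genes lay above all control arrays in each knockout array. Genes called on these same arrays tend to be separated in this way, so it is no separate check of the arrays. Leaving out knockout replicate 4 gave 24 risen genes, with Gmnn and Rrm2 added, leaving out control replicate 3 as well gave 22, and leaving out any other single array gave 18 to 21. Of the 22, 18 passed whichever single array was left out. The exceptions were Mcm2, Mcm4, Cdc45 and Gins3.

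**Figure D2:**
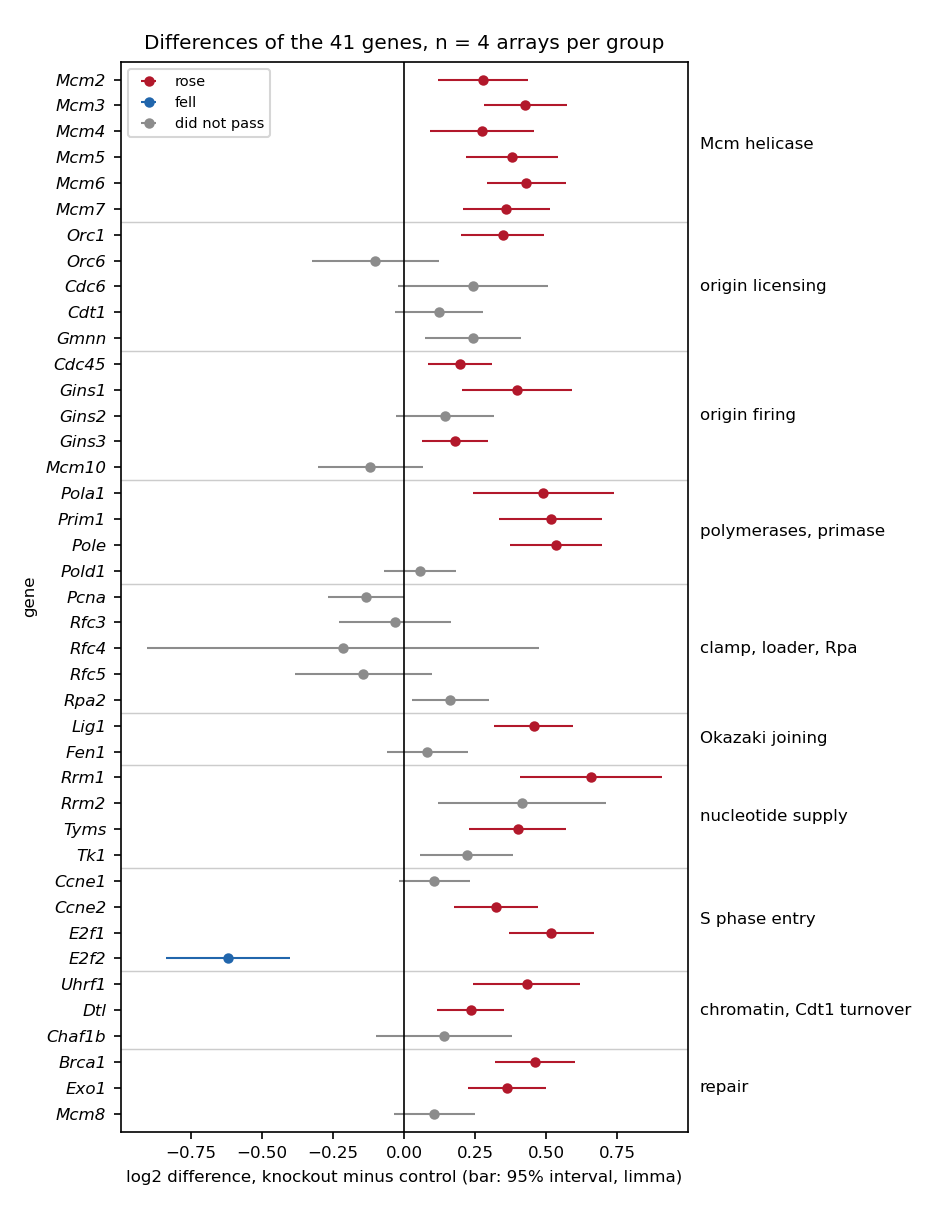
Log2 difference of each gene, knockout minus control, with its 95% interval from limma (n = 4 arrays per group), grouped by role. The 22 genes that rose lie between 0.18 (Gins3) and 0.66 (Rrm1), E2f2 at −0.62 is the gene that fell, and 18 did not pass.

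The Mcm2 to Mcm7 subunits form the ring that unwinds DNA ahead of the fork. All 6 rose, by 1.21-fold to 1.35-fold, and in none did the groups overlap. Mcm6 read 8.21, 8.41, 8.41 and 8.32 in knockout arrays, against 7.88, 7.95, 7.84 and 7.95 in control arrays. It showed the largest difference of the ring (0.43, SE 0.063, adjusted p = 7.51e-04), and its lowest knockout value stood well clear of its highest control value. Mcm3 read 7.26, 7.35, 7.46 and 7.29 in knockout arrays, against 6.86, 6.88, 6.88 and 7.04 in control arrays (0.43, SE 0.066, adjusted p = 0.0011). Mcm5 read 8.72, 8.84, 8.79 and 8.85 in knockout arrays, against 8.43, 8.48, 8.55 and 8.24 in control arrays (0.38, SE 0.073, adjusted p = 0.00419). Mcm7 averaged 8.71 ± 0.082 (SD, n = 4) in knockout and 8.35 ± 0.10 in control arrays (0.36, SE 0.069, adjusted p = 0.00404). These 4 subunits passed whichever array was left out.

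The remaining subunits of the ring were closer to the threshold. Mcm2 read 8.56, 8.72, 8.81 and 8.54 in knockout arrays, against 8.43, 8.39, 8.40 and 8.31 in control arrays (0.28, SE 0.071, adjusted p = 0.0206). Its call ended without knockout replicate 2, knockout replicate 3 or control replicate 4 (adjusted p up to 0.0616). The call also ended with the mesenchymal mean as a covariate (adjusted p = 0.0846), where the difference was larger but less precise (0.31, SE 0.098). Mcm4 read 8.47, 8.50, 8.79 and 8.43 in knockout arrays, against 8.19, 8.30, 8.25 and 8.35 in control arrays (0.27, SE 0.083, adjusted p = 0.0417). Knockout replicate 3 stood above the other knockout arrays, and the lowest knockout value was just above the highest control value. The Mcm4 call ended without any single array other than knockout replicate 4 (difference 0.19 to 0.30, adjusted p up to 0.111). It also ended with the mesenchymal mean as a covariate (0.20, adjusted p = 0.356) and with the erythroid mean, the leukocyte mean or Xist as one (adjusted p up to 0.0677).

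Promoter sequence was looked up for the 41 genes because many of them moved together. RefSeq promoter windows of GRCm38.p6 were matched for 34 genes. Those not matched were Mcm4, Gmnn, Gins1, Gins2, Pole, Ccne2 and Exo1. Each window was searched over the 250 bases before an annotated start of the gene, on both strands and with overlaps allowed. The letters sought were TTTCCCGC, TTTGGCGC, TTTCGCGC and TTTGCCGC, which E2F factors are known to bind. Of the 34 genes 10 held such letters, against 1.86% of the 32851 windows and 2.16% of the 27025 genes in the table. They were Mcm5, Mcm6, Mcm7, Orc1, Gins3, Pola1, Uhrf1 and Dtl, which rose, and Cdc6 and Rfc3, which did not pass. The letters were thus in 8 of 17 risen genes with a window and in 2 of 16 that did not pass. The median difference was 0.35 over the 10 genes and 0.15 over the 24 genes without the letters in their windows, of which 9 rose. An annotated start can lie inside a gene. The only window of E2f1, counted among those 24, appears to be coding sequence, so its promoter was probably not searched. The second window of E2f2 also appears to open in coding sequence. Whether the other windows hold the promoter in use was not checked, so genes counted as without the letters may hold them elsewhere. The letters CCAAT, read by the factor NF-Y, were in 22 of the 34 genes, against 37.5% of all genes and 17 of 22 mitosis genes with a window. The letters TTTGAA, an element found in promoters of mitosis genes, were in 5 of the 34, against 18.3% of all genes and 7 of those 22 mitosis genes. The E2F letters were in 1 of the 22. A match is a run of letters and not a measured binding site.

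The windows of Mcm6, Mcm5 and Orc1 are shown as risen genes that hold the letters. Rrm1 is shown as the gene with the largest rise, which holds none, and Rfc3 as a gene that holds the letters and did not pass. They lie at chr1:128359706-128359955 on the minus strand (Mcm6), chr8:75109259-75109508 on the plus strand (Mcm5), chr4:108579204-108579453 on the plus strand (Orc1), chr7:102441445-102441694 on the plus strand (Rrm1) and chr5:151651209-151651458 on the minus strand (Rfc3). Each is written 5′ to 3′ in the direction of the gene, ending at the base before its start, with the E2F letters on either strand in capitals.
Mcm6: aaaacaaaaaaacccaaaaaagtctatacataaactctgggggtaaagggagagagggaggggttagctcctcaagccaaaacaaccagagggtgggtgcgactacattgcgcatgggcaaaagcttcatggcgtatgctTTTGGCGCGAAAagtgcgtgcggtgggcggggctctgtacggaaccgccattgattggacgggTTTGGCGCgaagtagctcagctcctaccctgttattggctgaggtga
Mcm5: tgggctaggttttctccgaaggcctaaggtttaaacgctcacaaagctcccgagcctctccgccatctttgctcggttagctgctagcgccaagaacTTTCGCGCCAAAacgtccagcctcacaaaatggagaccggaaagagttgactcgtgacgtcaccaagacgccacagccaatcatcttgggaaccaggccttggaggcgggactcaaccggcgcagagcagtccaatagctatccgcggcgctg
Orc1: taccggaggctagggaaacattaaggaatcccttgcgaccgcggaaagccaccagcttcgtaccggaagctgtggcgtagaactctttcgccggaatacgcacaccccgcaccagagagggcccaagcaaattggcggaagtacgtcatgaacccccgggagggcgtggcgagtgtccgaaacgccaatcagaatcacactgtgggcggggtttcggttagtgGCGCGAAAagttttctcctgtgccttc
Rrm1: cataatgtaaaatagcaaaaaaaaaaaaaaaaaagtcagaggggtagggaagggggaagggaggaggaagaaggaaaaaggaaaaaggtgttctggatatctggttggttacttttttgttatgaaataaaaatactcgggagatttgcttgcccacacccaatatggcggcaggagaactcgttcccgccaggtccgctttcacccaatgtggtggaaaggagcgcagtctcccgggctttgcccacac
Rfc3: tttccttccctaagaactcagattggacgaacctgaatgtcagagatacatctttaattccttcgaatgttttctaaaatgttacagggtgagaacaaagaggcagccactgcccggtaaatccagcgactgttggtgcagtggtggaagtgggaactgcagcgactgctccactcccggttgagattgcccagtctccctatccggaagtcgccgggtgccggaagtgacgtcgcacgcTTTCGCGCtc
Mcm6 held 3 matches, of which 2 overlap head to head in the run TTTGGCGCGAAA that starts 110 bases before the gene. Mcm5 held 2 that overlap in the run TTTCGCGCCAAA, starting 153 bases before the gene. The single match of Orc1 starts 27 bases and that of Rfc3 10 bases before the gene.

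Of the 5 licensing genes among the 41, Orc1 rose and the other 4 did not pass. Orc1, the ATPase subunit of the origin recognition complex, read 6.26, 6.30, 6.45 and 6.33 in knockout arrays, against 6.04, 5.89, 6.08 and 5.94 in control arrays (1.27-fold, 0.35, SE 0.066, adjusted p = 0.00397). Its groups did not overlap. With the mesenchymal mean as a covariate its adjusted p was 0.0512. Orc6, the smallest subunit of the same complex, read 8.66, 8.38, 8.69 and 8.21 in knockout arrays, against 8.64, 8.62, 8.55 and 8.54 in control arrays (−0.10, SE 0.10, adjusted p = 0.584). Its knockout arrays split into a pair (replicates 1 and 3) just above the control arrays and a pair below them.

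Cdc6, which brings the ring to origins, read 6.81, 6.79, 6.96 and 6.64 in knockout arrays, against 6.45, 6.26, 6.68 and 6.84 in control arrays (0.24, SE 0.12, adjusted p = 0.209). The range of its control arrays was wider than the difference between groups. Cdt1, its loading partner, differed by 0.12 (SE 0.070, adjusted p = 0.284, 95% interval −0.03 to 0.28). Gmnn, the inhibitor of Cdt1, read 5.99, 5.98, 6.05 and 5.79 in knockout arrays, against 5.73, 5.84, 5.70 and 5.57 in control arrays (0.24, SE 0.076, adjusted p = 0.0507). Knockout replicate 4 was below the highest control array, and the other knockout arrays were above all control arrays. Gmnn passed without knockout replicate 4 (0.30, adjusted p = 0.0134) and without control replicate 2 (0.28, adjusted p = 0.0365).

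Of the 5 factors that switch the loaded helicase on, 3 rose and the others did not pass. Gins1, a subunit of the GINS complex, read 5.97, 6.13, 6.20 and 5.86 in knockout arrays, against 5.73, 5.75, 5.51 and 5.59 in control arrays (1.32-fold, 0.40, SE 0.087, adjusted p = 0.00858). The groups did not overlap, and it passed whichever array was left out. Cdc45, which bridges GINS and the Mcm ring, read 7.56, 7.58, 7.53 and 7.54 in knockout arrays, against 7.37, 7.30, 7.39 and 7.37 in control arrays (1.15-fold, 0.20, SE 0.051, adjusted p = 0.022). The 4 knockout values were nearly equal. Its call ended without knockout replicates 1, 2 or 3 or control replicate 2 (adjusted p up to 0.0656), without knockout replicates 1 and 4 together (adjusted p = 0.0899) and with the mesenchymal mean as a covariate (adjusted p = 0.121).

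Gins3 showed the smallest rise of all 22, at 6.41, 6.46, 6.52 and 6.45 in knockout arrays, against 6.28, 6.31, 6.28 and 6.25 in control arrays (1.13-fold, 0.18, SE 0.052, adjusted p = 0.0371). Its groups did not overlap, but the call ended without any single array other than knockout replicate 4 (adjusted p up to 0.115). With the mesenchymal mean as a covariate its adjusted p was 0.21. Gins2 differed by 0.14 (SE 0.078, adjusted p = 0.265). Mcm10, a scaffold of the firing helicase and no subunit of the ring, read 7.37, 7.43, 7.46 and 7.49 in knockout arrays, against 7.58, 7.32, 7.60 and 7.73 in control arrays (−0.12, SE 0.083, adjusted p = 0.399). Its knockout arrays lay inside the range of the control arrays.

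Of the 4 enzymes that start and extend DNA strands 3 rose. Pole, the catalytic subunit of the leading-strand polymerase, read 7.53, 7.70, 7.76 and 7.61 in knockout arrays, against 7.26, 7.04, 7.15 and 7.03 in control arrays (1.45-fold, 0.53, SE 0.074, adjusted p = 5.18e-04). Prim1, the catalytic subunit of primase, read 6.73, 6.86, 6.91 and 6.77 in knockout arrays, against 6.13, 6.46, 6.21 and 6.40 in control arrays (1.43-fold, 0.52, SE 0.081, adjusted p = 0.00121). Pola1, the polymerase that extends the primers, read 7.51, 7.67, 7.85 and 7.27 in knockout arrays, against 6.996, 7.12, 7.01 and 7.21 in control arrays (1.40-fold, 0.49, SE 0.11, adjusted p = 0.0107). In these 3 genes the groups did not overlap, although Pola1 in knockout replicate 4 was close to control replicate 4. With the mesenchymal mean as a covariate the adjusted p of Pola1 was 0.0933.

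Pold1, the catalytic subunit of the lagging-strand polymerase, read 7.95, 7.91, 7.89 and 7.89 in knockout arrays, against 7.89, 7.90, 7.87 and 7.74 in control arrays. It differed by 0.06 (SE 0.057, adjusted p = 0.586), with a 95% interval of −0.07 to 0.18 that lies below the differences of Pole, Prim1 and Pola1. Lig1, the ligase that seals the fragments of the lagging strand, read 8.09, 8.15, 8.33 and 8.15 in knockout arrays, against 7.71, 7.75, 7.69 and 7.75 in control arrays (1.37-fold, 0.46, SE 0.063, adjusted p = 5.45e-04). Its control arrays were tightly grouped and all lay below the knockout arrays. Fen1, the nuclease that trims those fragments, read 7.05, 7.09, 6.91 and 6.89 in knockout arrays, against 6.90, 6.84, 6.97 and 6.92 in control arrays (0.08, SE 0.064, adjusted p = 0.474). The Fen1 groups overlapped.

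The sliding clamp, its loader and the single-strand binding protein formed the role in which 0 of 5 genes passed. Pcna, the clamp and the brightest of the 41 genes, read 11.02, 11.04, 11.01 and 10.85 in knockout arrays, against 11.15, 11.06, 11.10 and 11.16 in control arrays. Every knockout array was below every control array, by a small margin (−0.13, SE 0.061, adjusted p = 0.172, exact permutation p = 0.0286). The dimmer of its 2 probe sets gave −0.14 (adjusted p = 0.161 over all probe sets). Both probe sets are annotated to the same transcripts, so a near-identical copy of the gene could not be told apart from it.

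Of the loader subunits, Rfc3 and Rfc4 changed sign with single arrays left out, while Rfc5 stayed negative (−0.20 to −0.02). Rfc4 read 9.21, 9.25, 9.09 and 7.78 in knockout arrays, against 9.17, 9.36, 8.44 and 9.22 in control arrays (−0.22, SE 0.31, adjusted p = 0.728). Knockout replicate 4 and control replicate 3 lay far below the other 6 arrays, which were within 9.09 to 9.36. Without knockout replicate 4 the difference was 0.14 (adjusted p = 0.66), and without both low arrays it was −0.07 (SE 0.074, adjusted p = 0.624). Rfc5 read 9.72, 9.81, 9.82 and 9.29 in knockout arrays, against 9.85, 9.84, 9.72 and 9.81 in control arrays (−0.14, SE 0.11, adjusted p = 0.444). Rfc3 read 8.27, 8.27, 8.19 and 7.90 in knockout arrays, against 8.13, 8.29, 8.10 and 8.23 in control arrays (−0.03, SE 0.089, adjusted p = 0.868). In both genes knockout replicate 4 was the lowest of all 8 arrays, and without it Rfc3 differed by 0.05. Rpa2, a subunit of the protein that coats single-stranded DNA, read 7.96, 8.04, 7.99 and 7.92 in knockout arrays, against 7.69, 7.88, 7.84 and 7.85 in control arrays (0.16, SE 0.061, adjusted p = 0.0972). All its knockout arrays were above all control arrays, though it did not pass.

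The enzymes that supply deoxynucleotides included the largest rise of the 41 genes. Rrm1, the large subunit of ribonucleotide reductase, read 10.50, 10.38, 10.57 and 9.99 in knockout arrays, against 9.74, 9.63, 9.62 and 9.81 in control arrays (1.58-fold, 0.66, SE 0.11, adjusted p = 0.00212). Knockout replicate 4 was the lowest of its group and still above every control array. Rrm2, the small subunit, whose level limits the enzyme in S phase, read 8.48, 8.87, 8.54 and 8.11 in knockout arrays, against 8.21, 8.14, 8.04 and 7.96 in control arrays (1.33-fold, 0.42, SE 0.13, adjusted p = 0.0545). Knockout replicate 4 lay among the control arrays while the other knockout arrays were above them all. Without that array Rrm2 passed (0.55, SE 0.10, adjusted p = 0.00352).

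Tyms, the synthase that makes thymidylate, read 8.17, 8.14, 8.32 and 8.14 in knockout arrays, against 7.88, 7.92, 7.76 and 7.62 in control arrays (1.32-fold, 0.40, SE 0.078, adjusted p = 0.00441). Its groups did not overlap, and it passed whichever array was left out. Tk1, the kinase that salvages thymidine, read 7.77, 7.71, 7.94 and 7.92 in knockout arrays, against 7.53, 7.55, 7.75 and 7.63 in control arrays (0.22, SE 0.074, adjusted p = 0.064). Control replicate 3 was above 1 knockout array, and Tk1 passed without that control array (0.26, adjusted p = 0.0441). Its probe sets differed. The dimmer one, at 7.42 in knockout and 7.06 in control arrays, gave 0.36 (SE 0.077, adjusted p = 0.0077 over all probe sets).

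The regulators of S phase entry went in opposite directions. E2f1, an activator of the replication genes, read 8.85, 8.96, 8.89 and 8.77 in knockout arrays, against 8.50, 8.32, 8.29 and 8.30 in control arrays (1.43-fold, 0.52, SE 0.068, adjusted p = 3.60e-04), the smallest p of the 41 genes. E2f2, a close relative also classed as an activator, read 8.36, 8.32, 8.11 and 8.16 in knockout arrays, against 8.93, 9.01, 8.91 and 8.57 in control arrays. It fell by 0.62 on the log2 scale (SE 0.099, adjusted p = 0.00126), and all knockout arrays were below all control arrays. No other of the 41 genes fell, and the E2f2 call held in all 21 alternatives (−0.71 to −0.40, adjusted p up to 0.0148). E2f2 is known for its part in red cell maturation, and 0 of the 5 erythroid markers passed. Their mean was 6.64 ± 0.13 (SD, n = 4) in knockout and 6.59 ± 0.037 in control arrays, and with it as a covariate E2f2 still fell.

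Cyclin E partners Cdk2 at the entry into S phase. Ccne2 read 7.73, 7.81, 7.67 and 7.73 in knockout arrays, against 7.53, 7.46, 7.30 and 7.35 in control arrays (1.25-fold, 0.32, SE 0.066, adjusted p = 0.00605), with no overlap between the groups. Its relative Ccne1 averaged 7.37 ± 0.052 (SD, n = 4) in knockout and 7.26 ± 0.056 in control arrays (0.11, SE 0.056, adjusted p = 0.25). The Ccne1 groups overlapped at a single array, control replicate 1 at 7.33.

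**Figure D3:**
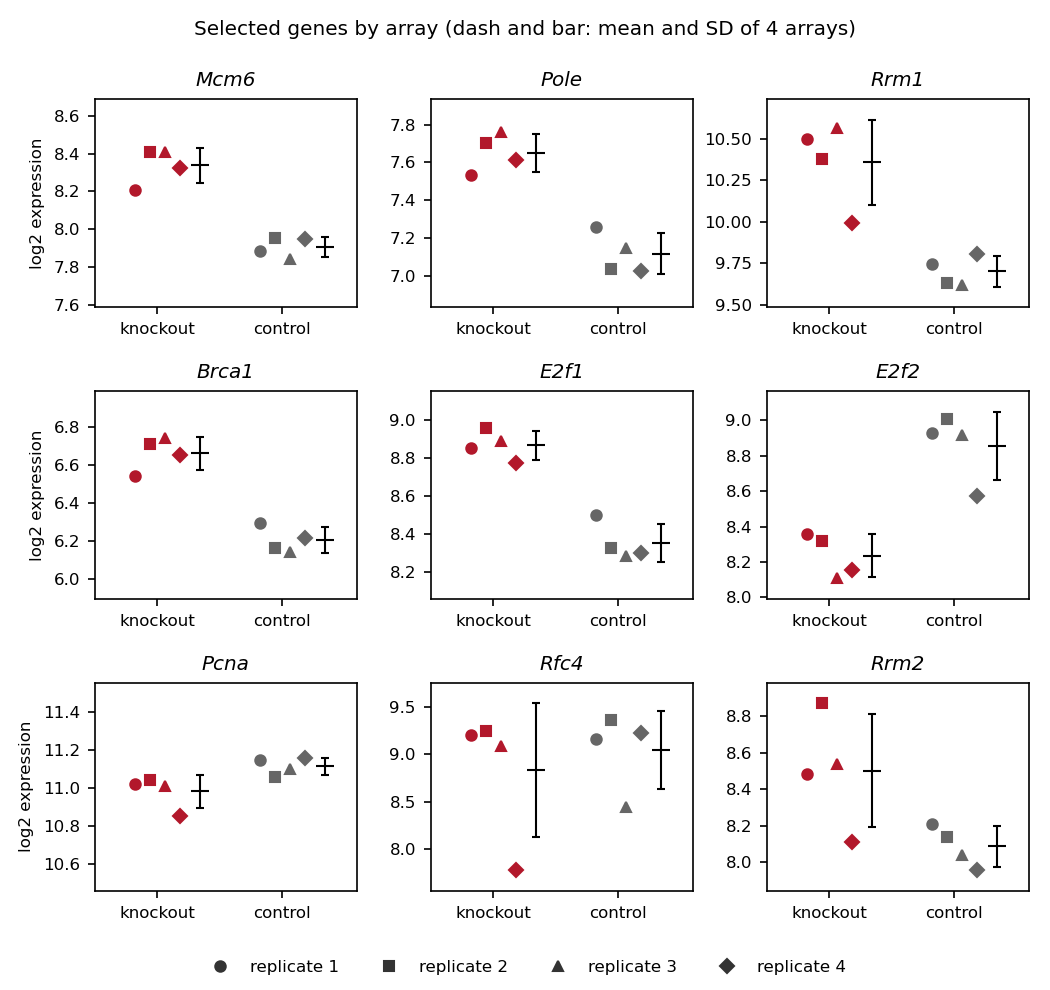
Log2 expression of 9 of the genes in each knockout array (red, left in each panel) and control array (grey, right), with the mean and SD of the 4 arrays beside the points. Mcm6, Pole, Rrm1, Brca1 and E2f1 are wholly above their control arrays and E2f2 and Pcna wholly below, while in Rfc4 and Rrm2 knockout replicate 4 (diamond) is the lowest knockout array.

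Of the 3 genes that act on new chromatin and on Cdt1, Uhrf1 and Dtl rose and Chaf1b did not pass. Uhrf1, which brings the DNA methyltransferase to newly copied DNA, read 7.65, 7.78, 7.79 and 7.59 in knockout arrays, against 7.40, 7.29, 7.35 and 7.05 in control arrays (1.35-fold, 0.43, SE 0.085, adjusted p = 0.00475). Dtl, the ubiquitin ligase receptor that marks Cdt1 for destruction in S phase, read 7.67, 7.63, 7.68 and 7.57 in knockout arrays, against 7.39, 7.40, 7.39 and 7.46 in control arrays (1.18-fold, 0.23, SE 0.053, adjusted p = 0.0108). The groups of these genes did not overlap, and the adjusted p of Dtl was 0.0955 with the mesenchymal mean as a covariate. Chaf1b, a subunit of the chaperone that places histones behind the fork, read 7.93, 7.84, 8.26 and 7.73 in knockout arrays, against 7.87, 7.93, 7.69 and 7.71 in control arrays (0.14, SE 0.11, adjusted p = 0.455). Apart from knockout replicate 3 its arrays were intermixed.

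Of the repair genes, 2 of 3 rose. Brca1, a tumour suppressor of repair by homologous recombination, read 6.54, 6.71, 6.74 and 6.65 in knockout arrays, against 6.29, 6.16, 6.14 and 6.22 in control arrays (1.37-fold, 0.46, SE 0.064, adjusted p = 5.39e-04). Exo1, a nuclease that resects DNA ends, read 7.03, 7.19, 7.18 and 7.18 in knockout arrays, against 6.85, 6.75, 6.82 and 6.71 in control arrays (1.29-fold, 0.36, SE 0.062, adjusted p = 0.00195). Both passed whichever array was left out. Mcm8, which works with Mcm9 in recombination and not in the replicative ring, read 6.54, 6.57, 6.75 and 6.54 in knockout arrays, against 6.52, 6.49, 6.53 and 6.43 in control arrays (0.11, SE 0.064, adjusted p = 0.323). Its knockout arrays were all above the control arrays by a narrow margin.

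More of the dimmer genes passed the test than of the brighter ones. Of the 22 genes above the median level of all genes (7.59) 9 rose, with a median difference of 0.19, and of the 19 at or below it 13 rose, with a median of 0.32. Among all genes 13.5% of those above that level and 3.69% of those at or below it rose. The bright genes that did not pass include Pcna, Rfc4 and Rfc5, and the bright Rrm1 rose.

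Other genes of the same processes, from lists set by pathway membership, were set beside the 41. Over the 131 measured genes of 6 such lists 35 rose (26.7%), 4 fell and 92 did not pass, with a median difference of 0.08. Of 40 other replication genes 11 rose and 1 fell. Cdc7, the kinase that triggers origin firing, read 6.85, 6.86, 6.92 and 6.86 in knockout arrays, against 6.49, 6.37, 6.27 and 6.38 in control arrays (1.41-fold, 0.50, SE 0.060, adjusted p = 2.09e-04). Orc3, another subunit of the origin recognition complex, read 9.40, 9.40, 9.32 and 9.22 in knockout arrays, against 9.80, 9.85, 9.68 and 9.70 in control arrays, and fell by 0.42 (SE 0.065, adjusted p = 0.00102). In both genes the groups stood clearly apart. Of 10 other nucleotide genes 3 rose and 0 fell, among them Samhd1, which breaks down deoxynucleotides (0.50, SE 0.076), and the nucleoside diphosphate kinase Nme1 (0.37, SE 0.092).

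Of 24 other genes of homologous recombination and the Fanconi pathway 11 rose and 0 fell. They include the helicase Blm, at 7.41, 7.48, 7.69 and 7.63 in knockout arrays against 7.04, 7.03, 7.05 and 7.08 in control arrays (1.42-fold, 0.50, SE 0.069), and the recombination factor Rad54b (0.39, SE 0.056). Of 27 genes of mismatch, excision and end-joining repair and of lesion bypass, 3 rose and 1 fell. Neil3, a DNA glycosylase, rose 1.60-fold (0.68, SE 0.11), and the ubiquitin ligase Rad18 rose 1.30-fold (0.38, SE 0.078). The glycosylase Ogg1 fell by 0.20 (SE 0.053, adjusted p = 0.0236). Of 12 checkpoint genes 0 rose and 1 fell. That gene was Wee1, a kinase that holds back Cdk1 (−0.24, SE 0.066, adjusted p = 0.0287). Mdc1, a mediator of the damage response, had the next smallest p and did not pass (0.15, SE 0.067, adjusted p = 0.152).

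Of 18 E2F and Rb family genes and their partners 7 rose and 1 fell. Tfdp2, a dimer partner of E2F factors, rose 1.39-fold (0.47, SE 0.058), and Ccna2, the cyclin of S phase and G2, rose 1.49-fold (0.58, SE 0.11). Cdk2, the kinase that cyclins E and A activate, read 8.95, 8.85, 8.85 and 8.74 in knockout arrays, against 9.20, 9.18, 8.94 and 9.03 in control arrays, and fell by 0.24 (SE 0.075, adjusted p = 0.0465). Its groups overlapped at control replicate 3.

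Mitosis genes differed by more than the replication genes. Of 24 measured mitosis genes 22 rose and 0 fell, with a median difference of 0.64. All 24 differences were above the median of the 41 replication and repair genes, and 7 were above the largest, that of Rrm1. Mki67, the proliferation marker, read 9.74, 9.97, 9.98 and 9.81 in knockout arrays, against 9.11, 9.03, 9.05 and 9.03 in control arrays (0.82, SE 0.067), and the cytokinesis protein Anln differed by 0.94 (SE 0.074). These are counts and medians over genes that share the same 8 arrays, and no test of the difference between the lists was made.

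**Figure D4:**
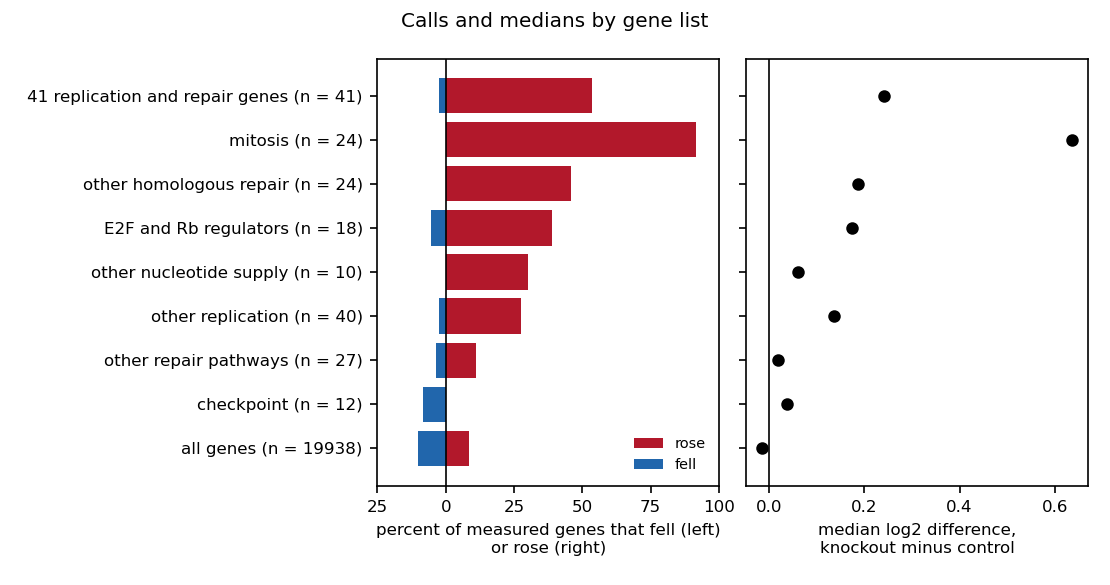
Left, the percent of measured genes in each list that rose (red, to the right) or fell (blue, to the left). Right, the median log2 difference of each list, knockout minus control. Among the lists plotted, the median of the 41 genes (0.24) lies below that of the mitosis genes (0.64) and above the others, and all genes are at −0.02.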

How the data were processed

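The table deposited by the authors holds log2 expression of 35556 probe sets in 8 single-colour arrays. The scale was read from the values, and the normalization, software and genome build were not given in any source used. At each rank the arrays differed by at most 0.175 from their mean, so no scaling was added. GEO's platform annotation gave 21789 probe sets 1 symbol, 1621 several and 12146 none. Of those with 1 symbol, 21698 matched RefSeq by gene number, and 0 symbols changed. The brightest probe set stood for each of 19938 genes.

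Each gene was tested two-sided for knockout against control, without covariates, by limma 3.58.1 (lmFit, then eBayes; R 4.3.3), after a check on simulated data. P-values were adjusted by Benjamini-Hochberg over all genes. The members, lists and alternatives were chosen with earlier results of these data known. Per-array values are given for the genes with the largest and smallest difference in each role, Pcna and genes whose call depends on 1 array; other genes shown in full were chosen after their values were seen. Of each other list, the 2 genes with the smallest p and any that fell are named. The lists hold 140 other replication and repair genes, 25 mitosis genes and markers of epithelial and 5 other cell types. Listed genes without a probe set of their own were not analysed here. In the epithelial list 2 of 8 genes rose and 0 fell. Same-numbered arrays did not deviate together (correlations −0.082 to 0.095), so replicate numbers were not taken as pairs. Alternatives changed scaling, filter, probe set, variance model, covariates and arrays.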

Additional observations from a re-analysis of the deposited data

Results flagged for a closer look

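In 6 of the 82 sets of 4 arrays formed by the 41 genes, 1 array stood apart from the others of its group by Dixon's test, where chance gives about 1 in 20. In knockout replicate 4, Rfc4 read 7.78, against 9.09 in the nearest knockout array, and Pcna read 10.85, against 11.01. In knockout replicate 3, Tyms read 8.32, against 8.17 in the nearest array, and Mcm8 read 6.75, against 6.57. In knockout replicate 1, Exo1 read 7.03, the lowest of its group, against 7.18. In control replicate 4, Mcm3 read 7.04, the highest of its group, against 6.88.

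Of 48 sets of 4 arrays formed by list means, where chance again gives about 1 in 20, the same test set an array apart in 3, each time knockout replicate 4. They were the mean of the clamp, loader and Rpa genes (8.75, nearest knockout array 9.22), of the other nucleotide genes (8.42, nearest 8.58) and of the genes of other repair pathways (7.93, nearest 8.07). In that array the mesenchymal (8.97), leukocyte (9.81), endothelial (9.69), erythroid (6.79) and mesothelial (9.69) marker means were the highest of the knockout arrays. Its epithelial marker mean (11.57) and Epcam (9.84) were the lowest. Their part in these values was not tested.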

How the results depend on the processing

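Of the 41 genes, 22 rose in the fit reported, and over the alternatives 17 (mesenchymal marker mean as a covariate) to 24 (without knockout replicate 4) rose, apart from the fit on genes above the median level. There only 22 of the 41 genes are tested, and 11 rose. Of the same 22 genes, 9 rose in the fit reported. In all 21 alternatives 1 fell. The median difference lay at 0.21 to 0.30 when single arrays were left out and moved to 0.32 without knockout replicates 1 and 4 together. Of the 22 risen genes 15 passed in every alternative that tested them. With the replicate number as a block, which the array values do not bear out as a pairing, 22 of the 41 genes rose. In that fit Gmnn, Rrm2 and Tk1 passed and Mcm4, Cdc45 and Gins3 did not. Only 1 of 4 knockout arrays correlated best with the control array of its own number. The direction reversed in genes that never passed. Rfc3 turned to 0.061 (mesenchymal covariate), 0.043 (erythroid covariate), 0.041 (without knockout replicates 1 and 4 together) and 0.024 (without knockout replicate 4 and control replicate 3, chosen after seeing the data), and over single arrays left out ran from −0.070 to 0.055, with 0.0020 without control replicate 2. Rfc4 turned to 0.17, 0.071 and 0.12 in the first 3 of these and ran from −0.42 to 0.14 (without knockout replicate 4) over single arrays, and Rfc5 turned to 0.012 without knockout replicates 1 and 4 together.

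Of the 131 other replication and repair genes 35 rose and 4 fell. Above the median level 17 of 90 rose. With the mesenchymal covariate 14 rose and 2 fell, with a median of 0.15 against 0.08, and without knockout replicates 1 and 4 together 1 fell. With single arrays left out 20 (without knockout replicate 3) to 36 (without knockout replicate 4) rose, 1 to 3 fell and the median was 0.072 to 0.13 (without knockout replicate 4). Mitosis genes that rose numbered 22 to 24 in each such fit. Over all genes 1715 rose and 2031 fell, and with the mesenchymal covariate 817 rose and 1041 fell. The cause of these shifts was not tested. The arrays give no signal over background, so whether the dimmest genes (Gins1, Gmnn and Orc1) are well measured is not known.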
